A study of Mus musculus with 8 samples.

Results

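Open chromatin of mouse hepatocytes at 96 h after partial hepatectomy (PHx) was compared with that of undamaged liver (0 h), to list the loci that stood away from the undamaged state at the last time measured. All mice were C57BL/6 by the labels and male C57BL/6J by the study's methods, 10-12 weeks old by the labels and on a normal diet. The 0 h hepatocytes came from healthy liver with no surgery, and the 96 h hepatocytes from liver that had undergone PHx, the surgical removal of a large part of the organ. Both preparations used a two-step collagenase perfusion, and accessible DNA was tagged by bulk ATAC-Seq, an assay whose transposase (Tn5) cuts and tags DNA that nucleosomes leave free. The comparison used 4 of the 8 libraries of the series, 2 at 0 h and 2 at 96 h. The other 4 libraries (48 and 72 h) are shown beside them for the same regions. The study's text describes hepatocytes from several mice at each time, and biological replicates of this assay at 0 and 48 h. It also states in general that its statistics rest on independent replicates. The labels do not tie a library to a mouse, so at 96 h the spread between the 2 libraries may still be technical. Each library is a list of peaks with a strength for every peak. The 100000 strongest distinct intervals of each list were kept, ranked by the −log10 p of the peak caller and given a percentile within the list, where 0 means that no kept interval overlapped. Overlapping intervals of the 4 lists were merged into 149956 regions. A region was called higher or lower at 96 h when both 96 h libraries stood beyond both 0 h libraries by a gap of at least 10 percentile points. By this rule 5653 regions were higher and 6781 were lower.

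Mature hepatocytes are held in their state by a network of transcription factors that includes the HNF4, HNF1, FOXA and C/EBP families. Their open enhancers lie around genes for plasma proteins, bile acid synthesis, drug oxidation and nitrogen metabolism. After PHx most of the remaining hepatocytes enter the cell cycle and then leave it again while the liver regains its mass. CTCF, which binds a long motif, holds chromatin loops in most cell types, and E-boxes are read by clock, MYC and sterol-regulatory factors.

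The sequences below show what the compared regions look like. They are 2 higher and 2 lower regions among the 4 with the largest gap in each direction, for each of CTCF, E-box and HNF4 a called region with a large gap that held its motif, and the upstream sequence of the list genes whose promoters had the largest gap in each direction, Cyp1a2 and Atoh1. Coordinates are on GRCm38.p6 (mm10). The first 7 are the 200 bp around the strongest summit, on the plus strand. The E2f3 window lies at chr13:30051256-30051455, the Upp2 window at chr2:58704611-58704810, the 4933440M02Rik window at chr7:125335550-125335749 and the Map3k5 window at chr10:19936584-19936783. The windows chosen by motif lie at chr5:127583779-127583978 (intergenic, nearest coding gene Slc15a4), chr4:101369843-101370042 (intronic, nearest coding start that of Ak4) and chr3:54522018-54522217 (intergenic, nearest coding gene Postn). The promoter sequences come from RefSeq and are read toward the gene, that of Cyp1a2 from the minus strand at chr9:57683704-57683905 and that of Atoh1 from the plus strand at chr6:64728875-64729124, both ending before the first annotated transcript start. Capitals mark matches to the motifs listed with the motif results, where CTCF is named by its core motif and not spelled out. A match on the opposite strand shows in the reverse complement.
E2f3 region (higher): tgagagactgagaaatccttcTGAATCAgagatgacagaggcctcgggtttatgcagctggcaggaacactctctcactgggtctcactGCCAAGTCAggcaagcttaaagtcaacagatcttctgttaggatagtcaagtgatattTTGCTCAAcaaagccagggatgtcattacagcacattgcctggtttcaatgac
Upp2 region (higher): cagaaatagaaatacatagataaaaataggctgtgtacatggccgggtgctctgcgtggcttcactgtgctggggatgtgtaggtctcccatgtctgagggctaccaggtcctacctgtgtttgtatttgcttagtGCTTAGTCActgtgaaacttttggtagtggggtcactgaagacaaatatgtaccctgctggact
4933440M02Rik region (lower): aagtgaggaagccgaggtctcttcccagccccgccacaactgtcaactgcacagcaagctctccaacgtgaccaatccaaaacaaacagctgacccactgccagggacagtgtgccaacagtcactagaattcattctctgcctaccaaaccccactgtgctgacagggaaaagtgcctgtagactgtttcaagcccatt
Map3k5 region (lower): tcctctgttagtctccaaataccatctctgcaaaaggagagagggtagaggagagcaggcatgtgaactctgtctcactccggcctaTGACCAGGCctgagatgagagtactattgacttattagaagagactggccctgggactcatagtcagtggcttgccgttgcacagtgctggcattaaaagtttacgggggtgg
CTCF example (higher, near Slc15a4): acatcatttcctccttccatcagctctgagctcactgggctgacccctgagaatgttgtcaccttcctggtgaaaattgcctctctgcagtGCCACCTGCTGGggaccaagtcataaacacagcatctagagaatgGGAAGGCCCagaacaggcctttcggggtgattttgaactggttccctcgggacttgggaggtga
E-box example (lower, near Ak4): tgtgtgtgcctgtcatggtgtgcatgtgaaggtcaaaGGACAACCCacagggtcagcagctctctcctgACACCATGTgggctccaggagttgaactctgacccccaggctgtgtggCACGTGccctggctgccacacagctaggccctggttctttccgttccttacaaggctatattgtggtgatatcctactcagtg
HNF4 example (lower, near Postn): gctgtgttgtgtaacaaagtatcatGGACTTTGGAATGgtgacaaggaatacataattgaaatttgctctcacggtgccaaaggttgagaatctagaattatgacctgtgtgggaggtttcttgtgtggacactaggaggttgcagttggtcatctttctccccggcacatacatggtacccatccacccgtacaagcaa
Cyp1a2 promoter (lower): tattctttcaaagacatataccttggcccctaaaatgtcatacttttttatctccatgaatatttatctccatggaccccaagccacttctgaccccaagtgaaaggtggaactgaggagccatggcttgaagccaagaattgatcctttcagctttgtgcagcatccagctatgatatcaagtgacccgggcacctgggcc
Atoh1 promoter (higher): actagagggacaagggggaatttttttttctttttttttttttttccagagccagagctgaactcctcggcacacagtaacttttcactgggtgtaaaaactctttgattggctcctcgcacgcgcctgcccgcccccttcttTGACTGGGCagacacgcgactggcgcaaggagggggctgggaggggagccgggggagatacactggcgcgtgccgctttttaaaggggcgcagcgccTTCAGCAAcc

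The E2f3 window held an AP-1, an NRF2 and a C/EBP match, the Upp2 and Map3k5 windows an NRF2 match each, and the 4933440M02Rik window none of the 16 motifs searched. The CTCF example also held an NF-kB match, the E-box example an NF-kB and a GR match, and the HNF4 example a TEAD match that overlapped the HNF4 match. The Cyp1a2 stretch held no match and the Atoh1 stretch held an NRF2 and a C/EBP match. In the first 250 bases of the RefSeq promoters, an NRF2 match was found in 10.2% and a C/EBP match in 9.56% of 32851.

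The libraries differed in strength, and read depth is unknown because the lists hold no read counts. The 4 lists held 105206 to 144736 distinct intervals. The −log10 p of the last kept interval was 4.4 and 2.54 before PHx and 4.81 and 3.77 after 96 h (replicates 1 and 2), and its median over the kept intervals was 15.2 and 9.96 against 14.5 and 8.29. Both replicates 2 were thus weaker than both replicates 1. The median absolute difference in percentile was taken over the 61246 regions kept in all 4 lists. It was 7.46 points between the 0 h libraries and 9.52 between the 96 h libraries. Between the replicates 1 it was 7.95 and between the replicates 2 it was 9.36. By this measure the 0 h libraries were the closest pair of these. The 96 h libraries were farther apart than the replicates 1 of the 2 times. By regions kept in both libraries as a share of those kept in either, the replicates 1 were closest, at 68.5%. This share was 63.8% for the 0 h pair, 57.9% for the 96 h pair and 53.7% for the replicates 2. The remaining pairs of a 0 h and a 96 h library shared 58.9% and 61.1%. Of the hepatocyte markers, the Hnf4a promoter stood at percentiles 97.5 and 98.1 before PHx and 96.0 and 96.2 after 96 h. The Ttr promoter stood at 79.4 and 62.0 against 60.9 and 46.6, and that of Fgb at 48.1 and 68.1 against 36.0 and 0.0. That of Alb stood at 64.8 and 47.4 against 40.2 and 0.0, and only Fgb of these passed the rule. Groups overlapped at Serpina1a (58.1 and 47.8 against 0.0 and 50.9) and Apoa1 (70.6 and 68.3 against 56.2 and 68.8). They overlapped too at Cps1 (48.7 and 71.2 against 48.9 and 57.9).

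Regions higher at 96 h were 3.77% and regions lower at 96 h 4.52% of all regions, 12434 (8.29%) together. In bulk libraries a region open in fewer cells and a region less open in each cell cannot be told apart. The same rule was run on the crossed pairings of these 4 libraries, in which each side held a library of each time point. It called 10998 regions (7.33%) with both replicates 2 against both replicates 1, the first crossed pairing. It called 9199 (6.13%) with 0 h replicate 2 and 96 h replicate 1 against the other two libraries, the second crossed pairing. The comparison of time points thus gave 1.13 and 1.35 times the crossed counts. With a gap of at least 40 points the counts were 211 higher and 258 lower, against 122 and 293 in the first and 138 and 106 in the second crossed pairing. The excess over the crossed pairings was not kept by every way of processing the lists. With all distinct intervals, with intervals of q under 0.05 only, with ranking by fold enrichment and with a required coverage of 50%, the count was 0.88, 0.644, 0.975 and 0.999 times the larger crossed count. For 2 libraries against 2 the smallest two-sided exact permutation p is 0.333, so no permutation p is given for a count or a region.

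**Figure D1:**
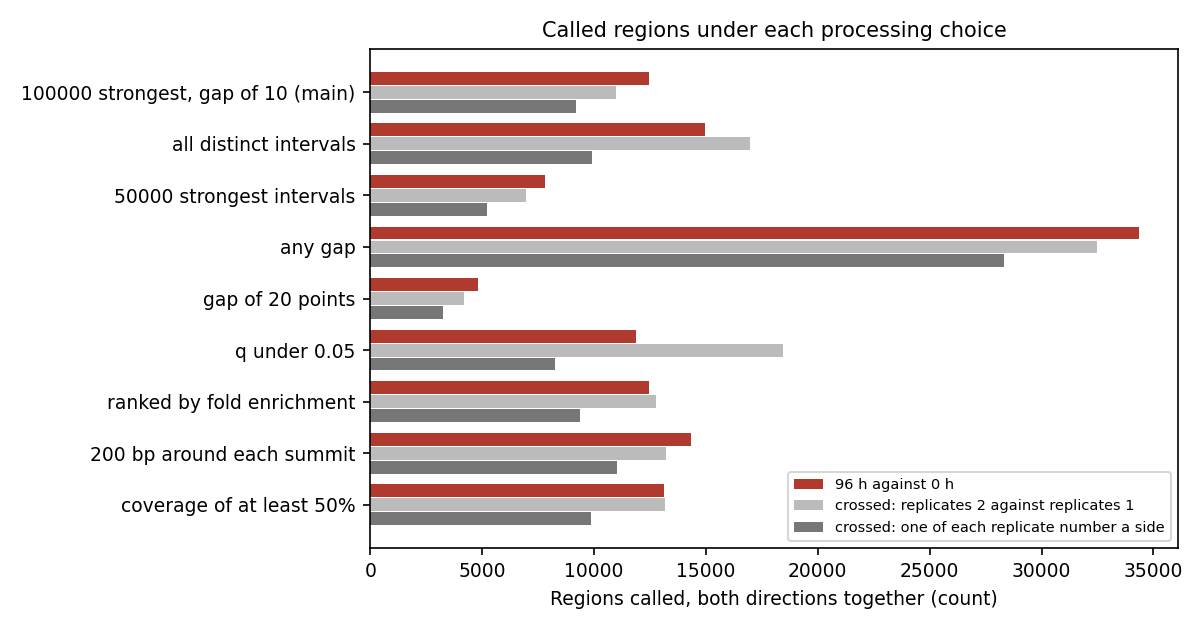
Regions called in both directions together (horizontal axis, count) under each processing choice (vertical axis), for 96 h against 0 h (red) and the crossed pairings of the same 4 libraries (grey). The red bar is 12434 against 10998 and 9199 in the main processing, and it is shorter than the longer grey bar with all intervals, q under 0.05, ranking by fold enrichment and coverage of at least 50%.

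A test across regions was made with limma on normal scores of the rank by −log10 p, with all 8 libraries sharing an estimate of the spread. It used the 52652 regions kept in all 8 lists and therefore could not see regions missing from a list. At an adjusted p (Benjamini-Hochberg) under 0.05 limma called 0 regions higher (0.0%) and 0 regions lower (0.0%). At an unadjusted p under 0.05 it found 1885 higher and 1439 lower, and the smallest adjusted p was 0.669. Among the regions named here, the promoter region of the noncoding gene 2310069B03Rik had a difference of 2.68 normal-score units (SE 0.454, limma adjusted p = 0.669). The other 19 of the 20 regions with the largest gaps were missing from a list and did not enter this fit. When absent intervals took the lowest score, limma's adjusted p was 0.000877 for the regions near E2f3 and at Oacyl and Fam111a, but both 0 h libraries then hold the same value there and show no spread by construction. The values that follow describe the libraries.

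Part of the called regions were missing on the other side. Of the 5653 higher regions, 1678 (29.7%) had no kept interval in either 0 h library, and 1187 had none in the full 0 h lists. Over all 149956 regions these counts were 32337 (21.6%) and 28220. Of the 6781 lower regions, 2281 (33.6%) had no kept interval in either 96 h library and 1096 none in the full 96 h lists. Over all 149956 regions these counts were 28612 (19.1%) and 21046. In the crossed pairings 489 and 2417 called regions of the first, and 964 and 813 of the second, were missing from both full lists of the other side. The missing regions were therefore fewer than in the first crossed pairing and more than in the second. The weakest called regions had a gap of 10.0 points in both directions and the nearest uncalled ones a gap of 9.999.

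The 0 and 96 h values chose these regions, and the 48 and 72 h libraries did not enter the choice. The higher regions had median percentiles of 17.1 and 0.0 before PHx, 30.2 and 32.3 after 48 h, 38.4 and 41.7 after 72 h and 48.0 and 51.8 after 96 h. The lower regions had medians of 44.1 and 48.6 before PHx, 23.5 and 29.1 after 48 h, 28.4 and 29.2 after 72 h and 11.1 and 0.0 after 96 h. The 48 and 72 h medians of both sets lay between those of 0 and 96 h. The choice of regions by their 0 and 96 h extremes favours such a position by itself. At 72 h a kept interval was present in 80.5% and 81.3% of the higher regions, against 64.4% and 69.3% after 48 h. Over all regions these shares were 58.4% and 59.3% after 72 h and 51.4% and 54.6% after 48 h, so that they were higher at 72 h there too.

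**Figure D2:**
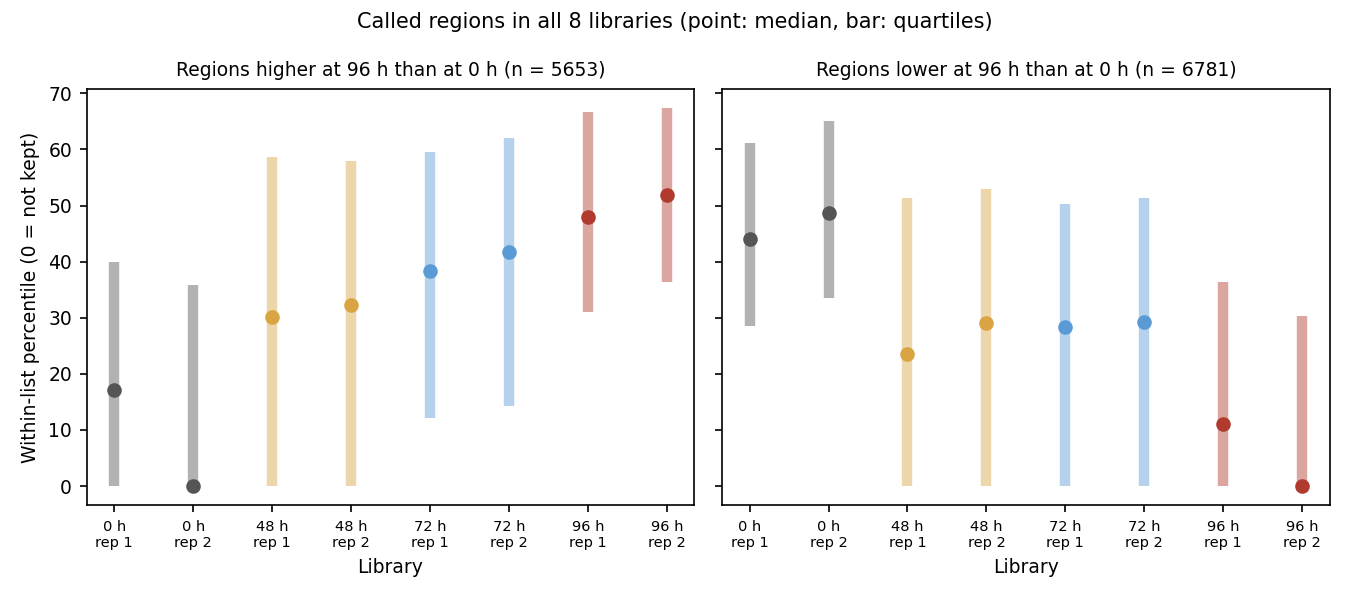
Within-list percentile (vertical axis, 0 for no kept interval) of the 5653 higher and 6781 lower regions in each of the 8 libraries (horizontal axis), with the median as a point and the quartiles as a bar. The 0 and 96 h values chose the regions. The 48 and 72 h medians, from 30.2 to 41.7 on the left and from 23.5 to 29.2 on the right, lie between the chosen extremes.

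The higher region with the largest gap, 67.6 points, lay within Dym (dymeclin, a Golgi protein) on chromosome 18, 829 bp from the start of the noncoding gene Gm8807. Its percentiles were 0.0 and 0.0 before PHx, 62.8 and 0.0 after 48 h, 68.6 and 56.4 after 72 h and 68.5 and 67.6 after 96 h. No 0 h interval lay there in the full lists, whereas the 96 h libraries agreed closely. The next region was intergenic at chr13:30051077-30051540, 65014 bp from the start of E2f3, a transcription factor that drives entry into S phase. It stood at 0.0 and 0.0 before PHx, 8.02 and 32.3 after 48 h, 40.7 and 47.7 after 72 h and 69.6 and 66.0 after 96 h, with a fold enrichment of 10.2 and 7.36 after 96 h. Each later time stood above the earlier ones there with no overlap between libraries. A region within Upp2, a uridine phosphorylase of liver, at chr2:58704611-58704951 stood at 0.0 and 0.0 before PHx, 0.0 and 41.3 after 48 h, 32.4 and 56.1 after 72 h and 65.2 and 65.0 after 96 h. The region at an exon of Oacyl on chromosome 18 was absent from the kept lists of 0 and 48 h, and stood at 47.8 and 39.3 after 72 h and at 70.4 and 62.2 after 96 h. The Upp2 and Oacyl regions were high at 96 h in both libraries and intermediate at 72 h.

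The other 6 of the 10 higher regions with the largest gaps had gaps from 57.2 to 61.6 points. They lay in introns of Sorcs3 (a sortilin-family receptor), Tamm41 (a mitochondrial phospholipid enzyme) and Rgs7 (a regulator of G protein signalling), and at the promoters of Coro1a, 2310069B03Rik and Fam111a. Coro1a encodes an actin-binding protein best known in leukocytes. Its promoter was kept in neither 0 h list and stood at 58.7 and 62.2 after 96 h. The Coro1a call was lost (gap 0.0) when intervals had to cover 50% of the region. Fam111a encodes a protease that acts at replication forks, and its promoter stood at 0.0 and 0.0 before PHx and 68.1 and 57.2 after 96 h. At the 2310069B03Rik promoter the region was open throughout, with percentiles of 22.2 and 14.6 before PHx, 85.0 and 50.9 after 48 h, 84.8 and 88.0 after 72 h and 88.3 and 80.7 after 96 h. Its fold enrichment was 4.27 and 3.38 before PHx and 14.5 and 10.2 after 96 h.

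The lower region with the largest gap, -65.3 points, lay in an intron of Svil (supervillin, an actin-binding protein) on chromosome 18. It stood at 67.6 and 65.3 before PHx, 41.8 and 12.0 after 48 h, 67.0 and 45.3 after 72 h and 0.0 and 0.0 after 96 h. The region was thus missing from both kept lists at 96 h and from neither at 72 h. An intron of 4933440M02Rik at chr7:125335495-125335929 stood at 63.9 and 64.7 before PHx, 30.2 and 0.0 after 48 h, 7.86 and 64.3 after 72 h and 0.0 and 0.0 after 96 h. Its 48 and 72 h libraries disagreed with each other. An intron of Map3k5 (ASK1, a stress-activated kinase) at chr10:19936595-19936791 stood at 63.4 and 61.7 before PHx, 0.0 and 0.0 after 48 h, 48.3 and 28.9 after 72 h and 0.0 and 0.0 after 96 h. This region was in neither full list at 48 or 96 h, although it was kept in both at 72 h. A coding exon of Ulk3, a kinase of the autophagy family, at chr9:57593886-57594136 stood at 61.3 and 69.2 before PHx, 0.0 and 53.6 after 48 h, 42.0 and 18 after 72 h and 0.0 and 0.0 after 96 h.

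The other 6 of the 10 lower regions had gaps between -61.2 and -59.3 points. They lay in introns of Acer2 (a ceramidase), Ttc7b (part of a lipid kinase complex) and Caskin1 (a scaffold protein), at the promoter of BC003965, and between genes near Ugt2b35 (a glucuronosyltransferase) and Postn (periostin, a matrix protein). The Acer2 call was lost (gap 0.0) when intervals had to cover 50% of the region. The region near Ugt2b35 stood at 60.8 and 66.7 before PHx and was in the kept list of neither 96 h library, and the region near Postn at 60.0 and 73.7 before PHx was in neither full list at 96 h.

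**Figure D3:**
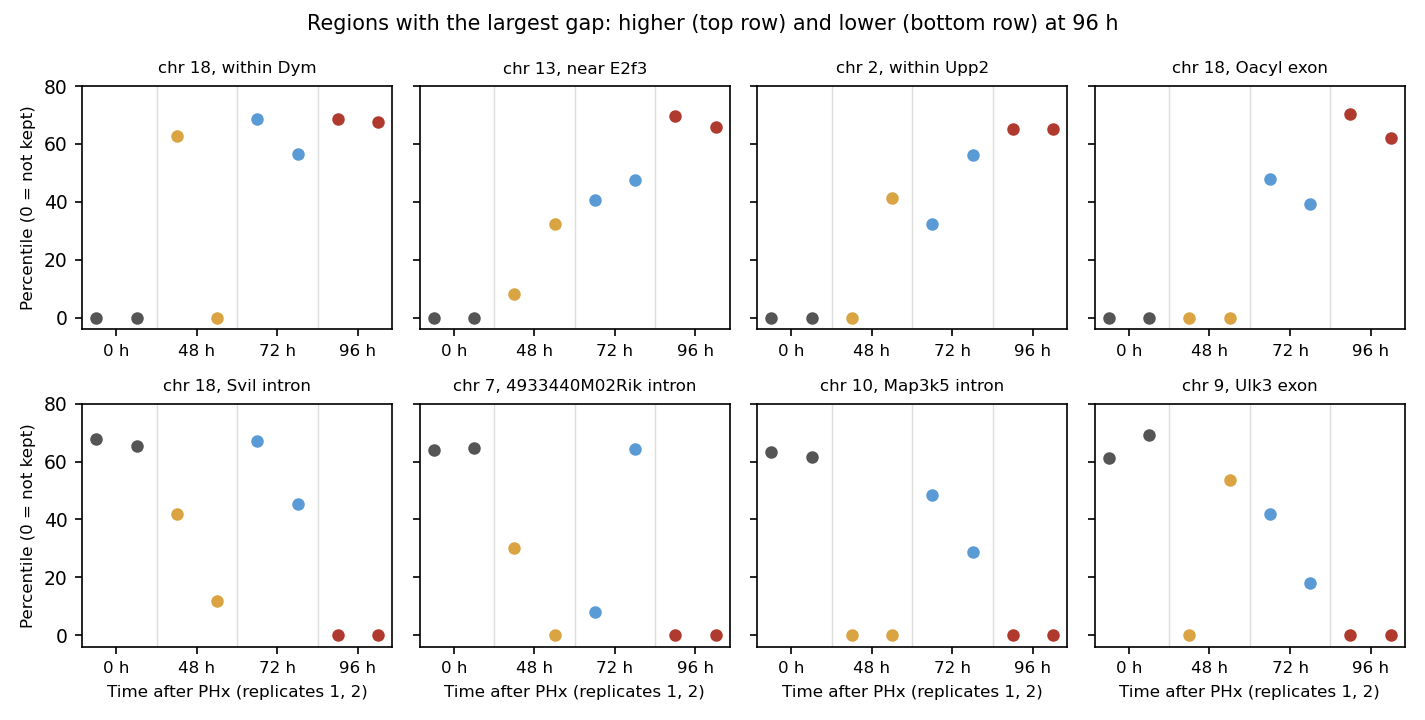
Within-list percentile (vertical axis, 0 for no kept interval) of the 4 higher (top) and 4 lower (bottom) regions with the largest gaps in each library (horizontal axis, replicates 1 and 2 at each time). The 96 h points lie between 62.2 and 70.4 in the top row and at 0.0 in the bottom row, and the 48 h pairs are mostly apart.

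Regions nearest to genes of mature hepatocyte function were lower at 96 h more often than they were higher. Of the 405 regions nearest to the list's 24 genes, 51 (12.6%) were lower and 5 (1.23%) higher, against 4.52% and 3.77% over all regions. In the crossed pairings the same 405 regions gave 18 (4.44%) and 16 (3.95%) calls in the opposite directions of the first, against 2.85% and 4.48% over all regions. They gave 36 (8.89%) and 9 (2.22%) in those of the second, against 3.33% and 2.8%, so a crossed pairing also put the list well above its background. The larger crossed share thus came with 0 h replicate 2 and 96 h replicate 1 above the other two libraries. The median percentile of the 405 regions was 19 and 32.9 before PHx and 18.4 and 5.65 after 96 h, so the replicates 1 of both times were close and the replicates 2 far apart. The share of lower regions stood above that over all regions whichever of the 4 libraries was left out, with the narrowest lead without 0 h replicate 2 (21.8% against 13.6%). With all distinct intervals 4.46% were lower, against 1.87% over all regions, and 3.45% were higher, against 5.04%. Without 96 h replicate 1 the higher share was 12.6% and without 96 h replicate 2 it was 11.9%, beside 24.2% and 21% lower. Over all regions these settings gave 18.6% and 15.9% higher and 13.3% and 11.3% lower. The list and its direction were known from earlier results of these data and are not independent evidence.

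Genes of this list with a lower promoter were Cyp1a2, Cyp2e1, Cyp7a1, Slc10a1 and Fgb, 5 of the 24 with a kept promoter interval, and 0 promoters were higher. Over the 15027 coding genes with a kept promoter interval, 287 promoters (1.91%) were lower and 377 (2.51%) higher. Cyp1a2, a drug-oxidizing cytochrome P450 of the pericentral zone, had the largest promoter gap. It stood at 48.3 and 61.8 before PHx, 0.0 and 0.0 after 48 h, 47.8 and 44.1 after 72 h and 2.38 and 0.0 after 96 h. Both 48 h and both 96 h libraries were thus at or near the bottom, with 72 h near the 0 h level. The promoter of Cyp2e1, which oxidizes ethanol, stood at 48.5 and 61.2 before PHx, 0.0 and 29.2 after 48 h, 18.7 and 12.2 after 72 h and 32.3 and 35.5 after 96 h. All later libraries were below both 0 h libraries. The promoter of Cyp7a1, the rate-limiting enzyme of bile acid synthesis, stood at 64.3 and 75.4 before PHx and 50.2 and 46.9 after 96 h. The promoter of Slc10a1, the bile acid uptake transporter, stood at 50.8 and 66.1 before PHx and 40.7 and 13.1 after 96 h, just past the rule (gap of -10.1). The promoter of Fgb, a fibrinogen chain, stood at 48.1 and 68.1 before PHx and 36.0 and 0.0 after 96 h.

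Alb and Glul did not pass the promoter rule. The promoter of Alb, the main plasma protein, stood at 64.8 and 47.4 before PHx, at 0.0 in all 4 libraries of 48 and 72 h, and at 40.2 and 0.0 after 96 h. The 96 h libraries disagreed, and the gap was -7.21. The promoter of Glul, the glutamine synthetase of pericentral hepatocytes, stood at 81.5 and 82.8 before PHx and 78.7 and 90.7 after 96 h, with overlapping groups. Lower regions away from these promoters are shown by examples that were chosen after their values were seen. A region 1286 bp from the start of Cyp3a11, a drug-oxidizing P450, stood at 43.4 and 69.1 before PHx and at 0.0 and 0.0 after 96 h. A region 15562 bp from the start of Ass1, a urea cycle enzyme, and outside that gene stood at 41.4 and 41.9 before PHx and 0.0 and 0.0 after 96 h. A region 9771 bp from the start of Fgb stood at 54.2 and 83.7 before PHx, 69.0 and 54.9 after 48 h, 34.6 and 95.2 after 72 h and 6.61 and 0.0 after 96 h. Apob, the structural protein of secreted lipoproteins, had 10 lower and 0 higher of its 53 regions, and Cps1, the first enzyme of the urea cycle, 5 lower and 1 higher of 62.

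The earlier times were set against the same 0 h libraries, so their values share the chance deviations of those libraries. Of the 405 mature-function regions 40 (9.88%) were lower at 48 h, 46 (11.4%) at 72 h and 51 (12.6%) at 96 h. Over all regions the share lower was 6.61% at 48 h, 4.72% at 72 h and 4.52% at 96 h.

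Regions near 18 genes for hepatocyte transcription factors were lower in 47 (8.77%) and higher in 18 (3.36%) of 536 cases. Over all regions 4.52% were lower and 3.77% higher. The crossed pairings gave 13 (2.43%) and 19 (3.54%) calls in the first, against 4.48% and 2.85% over all regions. They gave 21 (3.92%) and 16 (2.99%) in the second, against 2.8% and 3.33%. The promoter of Onecut1 (HNF6) was lower, at 76.1 and 83.4 before PHx, 84.6 and 71.5 after 48 h, 58.4 and 0.0 after 72 h and 60.8 and 40 after 96 h. The other 17 promoters were not called.

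Regions near the sterol and fatty acid synthesis genes were lower in 19 (8.05%) and higher in 7 (2.97%) of 236. Over all regions these shares were 4.52% and 3.77%. The first crossed pairing gave 16 (6.78%) and 7 (2.97%) calls, against 4.48% and 2.85% over all regions. The second gave 4 (1.69%) and 14 (5.93%), against 2.8% and 3.33%. The promoter of Srebf1, the regulator of fatty acid synthesis, was lower, at 73.0 and 83.2 before PHx and 44.3 and 58.9 after 96 h. The promoter of Acaca, the enzyme that commits carbon to fatty acids, was higher, at 35.8 and 28.1 before PHx and 46.9 and 51.0 after 96 h. The list thus held a called promoter in each direction. Regions near circadian clock genes were lower in 19 (7.66%) and higher in 6 (2.42%) of 248, and none of 17 promoters was called. The crossed pairings gave 13 and 13 calls (5.24% each) in the first and 6 (2.42%) and 10 (4.03%) in the second.

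The remaining lists stayed near the share over all regions, 3.77% higher and 4.52% lower. Regions near cell cycle genes were higher in 7 (4.73%) and lower in 8 (5.41%) of 148, and no promoter of the 21 was called. The promoter of Ccnd1, the G1 cyclin, stood at 71.9 and 49.4 before PHx, 90.8 and 82.1 after 48 h, 89.6 and 70.6 after 72 h and 77.7 and 58.7 after 96 h. Its 48 h libraries stood above both 0 h libraries, and its 96 h libraries overlapped them. Regions near immediate early genes were higher in 13 (4.55%) and lower in 10 (3.5%) of 286. Those near acute phase genes were higher in 4 (2.84%) and lower in 7 (4.96%) of 141. Hp, which encodes the haemoglobin scavenger haptoglobin, had a lower promoter, at 81.7 and 79.3 before PHx, 48.4 and 67.2 after 48 h, 58.2 and 48.5 after 72 h and 61.7 and 56.3 after 96 h. Regions near progenitor or fetal genes were higher in 19 (3.68%) and lower in 20 (3.87%) of 517. Afp, the fetal counterpart of albumin, had no kept promoter interval in the 4 libraries. The promoter of Atoh1, a neural and secretory lineage factor, was higher, at 31.9 and 30.2 before PHx, 55.3 and 50.9 after 48 h, 49.3 and 56.1 after 72 h and 69.0 and 66.5 after 96 h. All 6 libraries after PHx stood above both 0 h libraries at Atoh1.

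**Figure D4:**
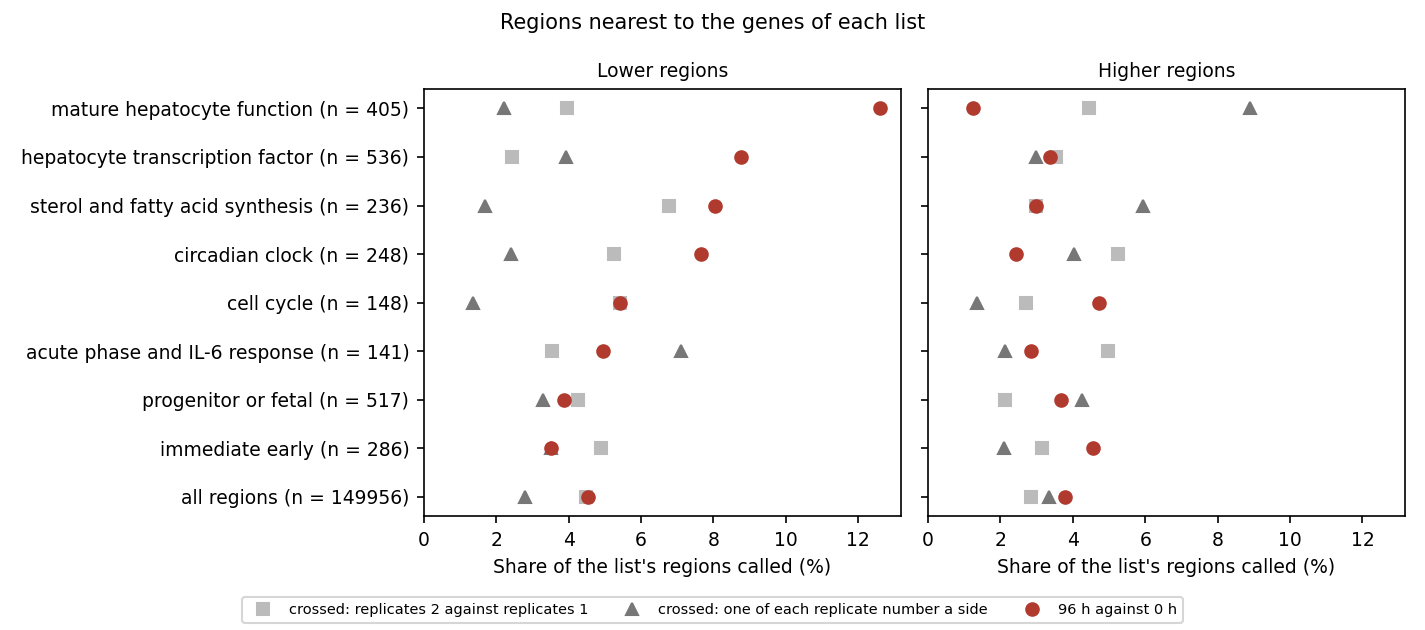
Share of the regions nearest to each list's genes (horizontal axis, %) that were lower (left) or higher (right), for 96 h against 0 h (red) and the crossed pairings (grey). The mature hepatocyte list stands at 12.6% lower and 1.23% higher, beside 4.52% and 3.77% over all regions.

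Markers of other liver cells were given the same look, since a preparation with other cells would carry their open promoters. For Kupffer cells (resident macrophages) 1 of 6 marker promoters had a kept interval in the 4 libraries. The summed percentile was 0.0 and 0.0 before PHx and 0.0 and 5.65 after 96 h, and Vsig4, Cd5l, Adgre1, Marco and Timd4 were at 0. None of the 3 lymphocyte promoters, Cd3e, Cd79a and Ptprc, had a kept interval. Of the neutrophil promoters, S100a9 was at 0 and the sum was 0.0 and 2.79 before PHx and 4.51 and 0.0 after 96 h. The sums for endothelial cells (4 of 6 promoters kept, Stab2 and Lyve1 at 0) were 106.1 and 154.9 before PHx and 96.13 and 133.8 after 96 h. For stellate cells (3 of 6 kept, Des, Acta2 and Pdgfrb at 0) they were 157.7 and 155.1 against 177.1 and 182.5. For cholangiocytes (3 of 4 kept, Krt19 at 0) they were 144.7 and 145.2 against 151.0 and 190.5. The stellate and cholangiocyte sums were higher in both 96 h libraries, no marker promoter of these 6 lists was called, and their part in the results was not tested.

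Counted by nearest coding gene, the genes with most higher regions were Pde4d (a cAMP phosphodiesterase, 12 of 123 regions), Adgrl2 (an adhesion receptor, 12 of 163), Pard3 (a cell polarity scaffold, 10 of 113), Rapgef5 (a Rap activator, 9 of 69) and Foxp1 (a forkhead repressor, 9 of 139). They were picked for these counts, so their higher shares of 6.47% to 13% are a description beside the 3.77% over all regions. Lower regions numbered 1 at Pde4d, 6 at Adgrl2, 2 at Pard3, 0 at Rapgef5 and 4 at Foxp1. The median percentile of all Pde4d regions was 11.2 and 14.6 before PHx, 12.8 and 27.7 after 48 h, 33.8 and 36.3 after 72 h and 35.2 and 38.1 after 96 h. The 0 and 96 h medians overlapped at Adgrl2 (9.08 and 14.6 against 3.69 and 27.3), at Pard3 (6.44 and 14.6 against 14.0 and 10.4) and at Foxp1 (8.53 and 17.0 against 20 and 12.0). The genes with most lower regions were Rreb1 (a zinc finger factor downstream of Ras, 13 of 67), Psd3 (an exchange factor for Arf6, 11 of 78), Cmah (a sialic acid hydroxylase, 10 of 35), Apob (10 of 53) and Tbl1xr1 (a subunit of the NCoR corepressor, 10 of 95). The Cmah regions had medians of 24.0 and 34.5 before PHx and 11.0 and 13.9 after 96 h. Between 10.5% and 28.6% of the regions of these 5 genes were lower, beside 4.52% over all regions. Higher regions numbered 1 at Rreb1, 2 at Psd3, 1 at Cmah and 0 at Apob and Tbl1xr1.

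Called regions lay in chains more often on the lower side. Chains of at least 3 called regions, with at most 50 kb between neighbours, numbered 180 higher and 480 lower. The crossed pairings gave 126 and 379 in the first and 227 and 87 in the second. Their longest chains held 7 and 10 regions in the first and 7 and 6 in the second, against 6 higher and 11 lower here. The longest lower chain held 11 called of 39 regions over 141.0 kb at Psd3. The medians given for a chain are those of its called regions, which were chosen for being lower. At Psd3 they were 32.0 and 32.8 before PHx, 15.2 and 0.0 after 48 h, 27.7 and 10.7 after 72 h and 0.0 and 0.0 after 96 h. The next 3 chains held 9 lower regions each. That over Il1r2 and Il1r1, the decoy and signalling receptors of interleukin 1, had medians of 53.3 and 49.8 before PHx, 47.5 and 47.9 after 48 h, 0.0 and 32.4 after 72 h and 0.0 and 0.0 after 96 h. That over Gas2l3, Nr1h4 and Slc17a8 holds the gene of FXR, the bile acid receptor, and had medians of 34.6 and 45 before PHx, 32.3 and 0.0 after 48 h, 24.2 and 18.9 after 72 h and 4.06 and 0.0 after 96 h. That over Abt1, the butyrophilin genes Btn1a1 and Btn2a2 and the histone gene Hist1h4h had medians of 63.6 and 65.7 before PHx, 86.1 and 80.7 after 48 h, 38.9 and 57.2 after 72 h and 12.4 and 40.5 after 96 h. At 48 h this chain stood above 0 h in both libraries and at 96 h below it. The fifth lower chain held 8 regions over Rdh16, Rdh7, Hsd17b6 and neighbouring dehydrogenase genes of retinol and steroids, with medians of 47.6 and 64.2 before PHx and 24.8 and 20 after 96 h. No higher region lay inside these 5 chains. Over all regions of the span, called or not, the medians before PHx and after 96 h were 33.0 and 32.8 against 18 and 0.0 at Psd3, 32.8 and 34.6 against 12.1 and 23.5 at Nr1h4 and 54.8 and 50.4 against 23.5 and 39.8 from Abt1 to Hist1h4h. They overlapped at Il1r2 and Il1r1, with 31.6 and 46.0 against 21.5 and 34.8, and at the dehydrogenase genes, with 32.5 and 56.9 against 40.5 and 19.7.

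The longest higher chains held 6 regions at Scg5 and Arhgap11a and 6 at Pard3, and 5 each at Map4k4, at Per2, Traf3ip1 and Asb1, and at Nav1, Csrp1 and Phlda3. The 6 called regions at Scg5 and Arhgap11a had medians of 26.5 and 35.9 before PHx, 54.4 and 28.1 after 48 h, 45.1 and 49.2 after 72 h and 61.9 and 63.3 after 96 h. The chain from Per2, a repressor of the circadian clock, to Asb1 held a region nearest to Per2, another nearest to Traf3ip1 and 3 nearest to Asb1. These 5 had medians of 61.5 and 35.9 before PHx, 66.3 and 64.2 after 48 h, 75.5 and 69.9 after 72 h and 78.2 and 76.6 after 96 h. All libraries after PHx stood above both 0 h libraries in these medians. Per2 itself had 1 higher and 2 lower of its 14 regions. Over all regions of the span, called or not, the medians were 26.5 and 35.9 before PHx and 47.9 and 62.3 after 96 h at Scg5 and Arhgap11a, and 18.9 and 7.26 before PHx and 44.3 and 28.9 after 96 h from Per2 to Asb1. The higher chain at Pard3 (a cell polarity scaffold) contained 1 lower region among its 27. Over all 27 the medians overlapped, with 6.44 and 11.4 before PHx and 19 and 0.0 after 96 h.

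By annotation (GENCODE M21), 3.17% of 24321 promoter regions, 3.7% of 72605 intronic and 4.2% of 46027 intergenic regions were higher, and 3.76%, 4.71% and 4.63% were lower. Neither direction stood out in promoters. The lower regions had a median GC content of 48.0% in the 200 bp around the summit, the higher ones 50% and all regions 49.5%. They held 3.25, 4.06 and 4.26 CpG on average. By chromosome, the share higher ranged from 2.77% (chromosome 11) to 5.34% (chromosome 19), and the share lower from 3.36% (chromosome 2) to 6.14% (X), leaving out the 35 regions of Y.

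Matches to 16 motifs were sought on both strands of the 200 bp windows. They were AP-1 (TGANTCA), CRE (TGACGTCA), C/EBP (TTGCNNAA), HNF4 (CAAAGTCC), FOXA (TGTTTAC), HNF1 (GTTAATNAT), STAT (TTCNNNGAA), NF-kB (GGGNNNTCC), NRF2 (TGACNNNGC), E-box (CACGTG), REV-ERB (TAGGTCA), GR (ACANNNTGT), TEAD (CATTCCA), E2F (TTTNNCGC), ETS (CCGGAAG) and CTCF by its core motif. Matches of different motifs may overlap, as those of AP-1, CRE and NRF2 can. The shares are given as a description with no test. An E-box was present in 2.25% of the higher, 4.93% of the lower and 3.21% of all regions. The difference of higher minus lower was -2.68 percentage points, against 1.35 and 0.907 in the crossed pairings. HNF4 matches stood at 1.79%, 3.91% and 2.34%, a difference of -2.12 points against 0.778 and -0.602. The E-box difference lay between -2.12 and -1.51 points, and that of HNF4 between -2.29 and -1.05, when each library was left out in turn. Over all kept intervals of a library, E-box matches were found in 3.392% and 3.65% before PHx and in 3.093% and 3.095% after 96 h, and HNF4 matches in 2.655% and 2.694% against 2.438% and 2.427%. Both 0 h libraries thus stood above both 96 h libraries for these motifs. The same order was found for C/EBP, FOXA, STAT, REV-ERB, ETS and CRE, and the reverse order for NF-kB, TEAD and E2F. It was therefore not particular to E-box and HNF4.

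The CTCF motif was present in 8.23% of the higher, 3.04% of the lower and 4.54% of all regions, a difference of 5.19 points against -2.2 and -0.0182 in the crossed pairings. This difference rested on 96 h replicate 1, without which it was -0.602 points. The share of CTCF matches over all kept intervals was 5.949% and 5.5% before PHx and 6.115% and 5.581% after 96 h, with overlapping groups. C/EBP matches stood at 11.9% of the higher, 15.5% of the lower and 12.1% of all regions, but the first crossed pairing gave a larger difference (5.47 against -3.61 points). Without 0 h replicate 2 the C/EBP difference was 0.439 points. FOXA and STAT matches were found in 6.43% and 7.55% of the lower, 3.89% and 4.99% of the higher and 4.59% and 5.69% of all regions. Their differences were -2.54 and -2.56 points, against -2.55 and -1.73 in the second crossed pairing. Without 0 h replicate 1 they were -0.574 and -0.584 points. AP-1 matches, found in 7.75% of all regions, differed by 0.84 points between the sets, less than in either crossed pairing (-3.31 and -3.75 points). Shares over all regions were 8.44% for NF-kB, 10.2% for NRF2, 6.69% for GR and 3.43% for TEAD.

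**Figure D5:**
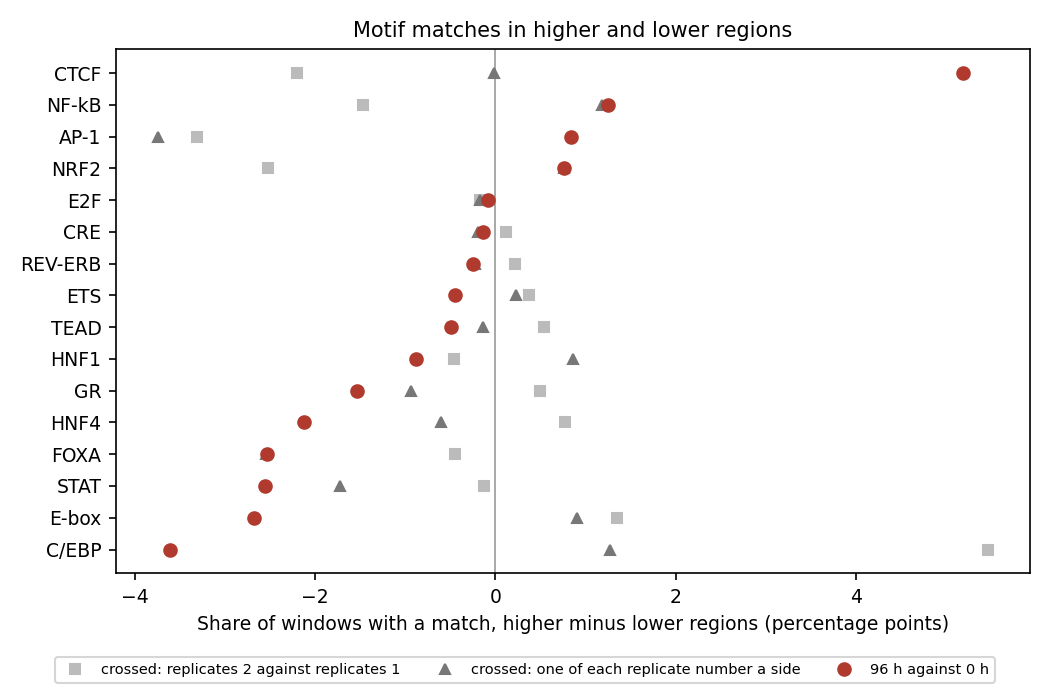
Share of 200 bp windows with a match in the higher minus that in the lower regions (horizontal axis, percentage points) for 16 motifs (vertical axis), for 96 h against 0 h (red circles) and the crossed pairings (grey). The sign of a crossed value depends on which side was named higher, so only sizes compare. The red value is larger in size than both crossed values for E-box, HNF4, HNF1, STAT, GR, REV-ERB, ETS and CTCF, and not for the other motifs. CTCF (5.19) rests on 96 h replicate 1.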

How the data were processed

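Bulk ATAC-Seq peak lists of 4 libraries (0 and 96 h after PHx, 2 each) were compared, and the 4 libraries of 48 and 72 h were read over the same regions. Groups came from the sample labels. Per the study's methods and the labels, the authors trimmed reads, aligned them to mm10 with Bowtie2, removed duplicates and called peaks per library with MACS2 without pooling replicates. The deposited lists state, per peak, a −log10 p, a −log10 q, a fold enrichment over local background and a display score, which the authors' peak caller computed. The deposited −log10 p ranked the intervals, the −log10 q and the fold enrichment entered alternatives and the score was not used. These lists hold no read counts, so depth is unknown and the study's test on reads could not be run.

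Lines sharing an interval were collapsed to the strongest summit. Each list was reduced to its 100000 strongest intervals, since list length would otherwise set the percentile, and merged at 1 bp of overlap. A missing interval took percentile 0. Crossed pairings of the 4 libraries served as background counts without a p. limma 3.58.1 (R 4.3.3) was fitted across regions on normal scores. The rank rule and limma were tested on simulated data. Genes were taken from GENCODE M21, with a promoter within 1 kb of a start, and regions were assigned to the nearest coding start. Sequences came from GRCm38.p6 and RefSeq.

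Named regions were the 10 with the largest gap in each direction, named genes the 5 with most called regions and the list genes with a called promoter plus Alb, Cyp2e1, Glul, Ccnd1 and Afp, and chains the 5 longest in each direction. Members, the 14 gene lists and motifs were chosen with earlier results of these data known. Same-numbered replicates of 0 and 96 h were checked for pairing. Their deviations from the group means correlated by 0.0663 over 61246 regions and no label ties the numbers, so the main rule did not pair them. This correlation does not cover regions missing from a list, and both replicates 2 were weaker than both replicates 1. Alternatives covered list length, gap, q threshold, ranking value, interval width, overlap, pairing and each library left out.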

Additional observations from a re-analysis of the deposited data

How the results depend on the processing

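The count of higher regions (5653) was 10895 with all distinct intervals, 3610 with the shorter lists of 50000 intervals, 15485 with any gap and 2095 with a gap of 20 points. The count of lower regions (6781) was 4044, 4177, 18888 and 2740 under these settings and 3996 with q under 0.05. The higher share of all called regions was 45.5%, but 72.9% with all distinct intervals and 66.3% with q under 0.05, so the balance of directions depended on the list lengths. With a replicate block (both same-numbered differences at least 10 points in the same direction) 8241 were higher and 9664 lower. Leaving out a library, which loosens the rule to 2 against 1, gave 10237 to 26156 higher and 14903 to 25542 lower. limma called 0 regions in each direction with the replicate block (smallest adjusted p 0.702), in the other fits on the 52652 regions and without each library (smallest adjusted p from 0.221 to 0.978). It called 1107 higher and 1481 lower of 84127 when absent intervals took the lowest score, a setting in which both missing libraries hold the same value and so show no spread by construction. Alternatives for the gene list and the motifs were added after their values were seen. Without each library in turn the CTCF difference ran from -0.602 (without 96 h replicate 1) to 6.93 points and the C/EBP difference from -4.85 to 0.439 (without 0 h replicate 2), and the cause was not tested. The 20 named regions kept their call in the alternatives, apart from 2 under 50% coverage. For a fixed region, leaving out a library or using the replicate block cannot make the gap smaller, so these settings could not lose a call. The size and order of the gaps depended on the lists. With 50000 intervals the gap was 61.4 at 2310069B03Rik and 45.8 at Sorcs3, and from 14.4 (Fam111a) to 35.3 (Dym) at the other higher regions, with 17.5 at Coro1a. The lower gaps then ran from -30.5 to -19. With all distinct intervals they were -35.7 at 4933440M02Rik, -36.9 at BC003965 and -31.5 at Caskin1, and ranked by fold enrichment -16.8 at Map3k5. Unknown depth limits every absence to absence from a list.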
